A study of Mus musculus with 12 samples.

Results

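Plasma lipases and the proteins that steer them were followed in mouse liver RNA through 8 genes, taken by symbol from a table of 23849 gene symbols: Lipc, Lipg and Lpl (lipases), Gpihbp1 and Angptl4 (partner and inhibitor of lipoprotein lipase), and Lcat, Pltp and Scarb1 (genes of high-density lipoprotein, HDL). Each had 1 line in the table, and all 8 reached the mean of 1 FPKM (read fragments scaled by transcript length and by the mapped reads of the library) over the 12 mice that was required for a test, along with 9806 genes in all. The mice were male, on a C57BL/6J background, and every group, controls included, was fed a high-fat diet (HFD). The stated age of 8 weeks was read as that at the start of the diet, so the mice were older when sampled. For the last 2 weeks of the diet they received either vehicle (Cntrl), which was drinking water, or Libramed, the label's name for Policaptil Gel Retard, a blend of plant fibers that swells in the gut. Both were given by gavage once a day shortly before lights off. Livers were taken at ZT0 or ZT12, where Zeitgeber time (ZT) counts the hours since lights on, so that ZT0 ends and ZT12 starts the active phase. With 3 mice in each of the 4 groups, each sample was a piece of whole liver from 1 mouse, no group was fed another diet, and no mouse was sampled at both times.

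Triglyceride-rich lipoproteins and HDL are remodelled in the blood by a small family of secreted lipases. Lipoprotein lipase, encoded by Lpl, splits triglycerides on the capillary wall of muscle, heart and fat, where the endothelial protein GPIHBP1 holds it and ANGPTL4 inactivates it. Hepatic lipase (Lipc) is made by hepatocytes and acts on remnant particles and HDL in the liver sinusoids, and endothelial lipase (Lipg) acts mainly on HDL phospholipids. LCAT esterifies HDL cholesterol, PLTP moves phospholipids between lipoproteins, and SR-BI, the product of Scarb1, takes up cholesteryl esters from HDL into hepatocytes. Only RNA was measured here, and not the enzymes, their activity in plasma or the lipoproteins.

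Some facts of the libraries bear on what follows. The FPKM of a library added up to between 634683 and 759355, read totals were not part of the table, and the deepest library had 1.78 times the relative depth of the shallowest, as estimated from the spacing of low values. Of 17 clock genes tested, 12 rose and 4 fell from ZT0 to ZT12 over both treatments (limma, adjusted p under 0.05, which 29.7% of all genes tested passed in either direction), and hepatocyte markers summed to between 45929 and 63919 FPKM. Albumin (Alb) was listed at 0 in all 12 libraries, so a 0 in the table need not mean absent RNA. Libramed ZT12 replicate 3 stood apart with 56.6 FPKM of summed skeletal muscle markers (Acta1 16.4 FPKM and Ckm 10.4 FPKM), against 0.962 to 1.62 FPKM in the other 11 libraries, where both of these genes were at 0. Some of the limma differences below that include this library are also given without it. Marker sums, ratios, exact permutation tests and results for listed genes were computed only with it.

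The 8 genes covered a wide span of levels. Averaged over the 12 mice, Lcat came first at 433 FPKM, followed by Angptl4 at 97.3, Scarb1 at 91.9, Lipc at 91.4, Pltp at 13.8, Gpihbp1 at 12.5, Lipg at 5.97 and Lpl at 1.06 FPKM. FPKM is scaled by transcript length, so these levels can be set against each other. Lcat exceeded Angptl4 in 12 of 12 libraries and Lipc exceeded Pltp in 12 of 12. Angptl4, Scarb1 and Lipc could not be ordered, since Angptl4 was above Scarb1 in 6 of 12 libraries and Scarb1 above Lipc in 5 of 12. The order of Pltp over Gpihbp1 held in 7 of 12 libraries, that of Gpihbp1 over Lipg in 9 of 12 and that of Lipg over Lpl in 11 of 12. Among all symbols, Lcat ranked 212 and Lpl 9685 of 23849, so the lipase with the largest role outside the liver was the one nearest to the limit for a test.

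**Figure D1:**
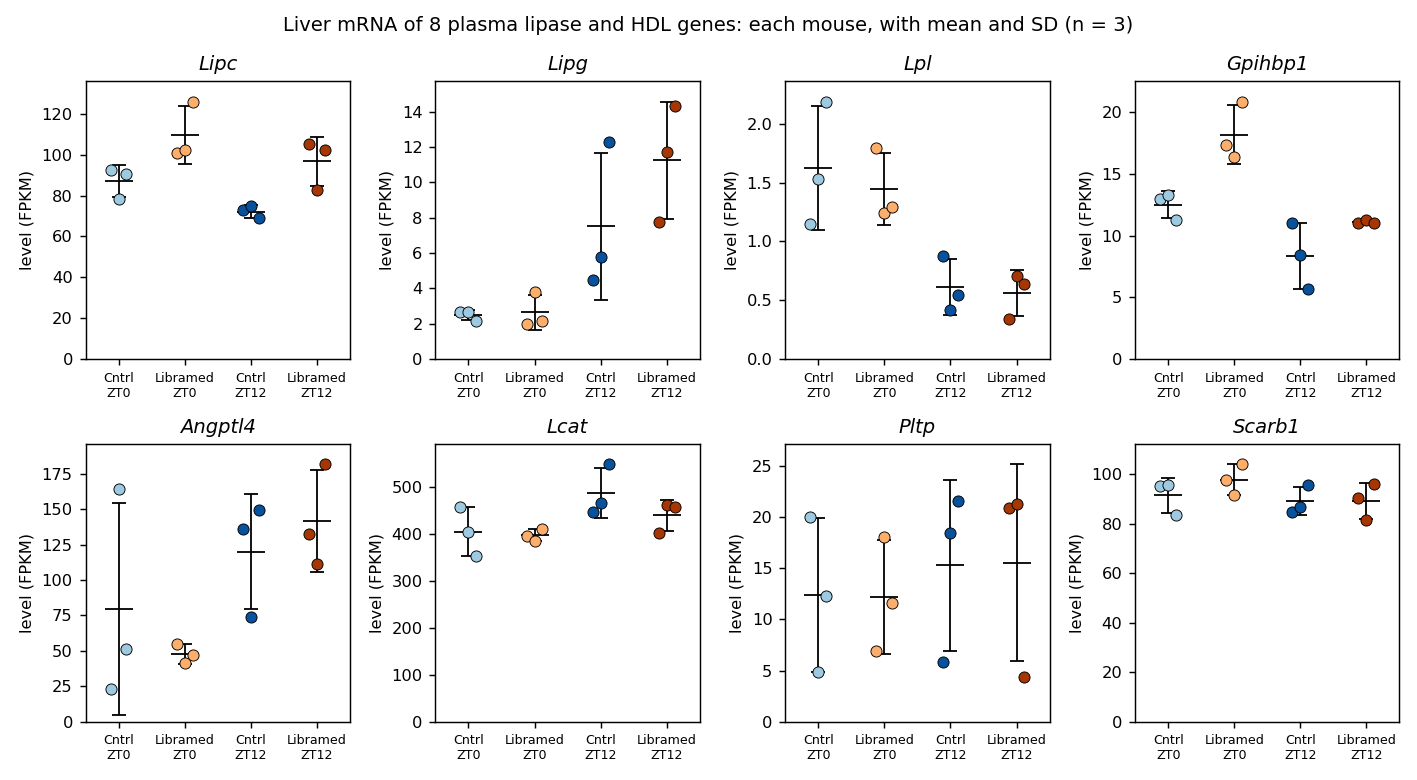
Levels of the 8 genes in FPKM (vertical axes from 0), 1 panel per gene; points are the 3 mice of each group, horizontal lines the group means and bars the SD. Lipg stood between 4.50 and 14.3 FPKM in the 6 ZT12 mice and between 1.96 and 3.80 FPKM in the 6 ZT0 mice, while Pltp held 1 low mouse in every group.

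The stretch just upstream of the start site is shown for Lipc, the gene with the smallest p between treatments, and for Pltp, the gene that varied most within groups. Both come from RefSeq (GRCm38.p6), which held promoter entries for 3 of the 8 genes (Lipc, Pltp and Lcat) in the table used here. The lines give the 250 bases before the start site, 5′ to 3′ on the strand of the gene, with any motif that was found in capitals.
Lipc, chr9:70952222-70952471, minus strand: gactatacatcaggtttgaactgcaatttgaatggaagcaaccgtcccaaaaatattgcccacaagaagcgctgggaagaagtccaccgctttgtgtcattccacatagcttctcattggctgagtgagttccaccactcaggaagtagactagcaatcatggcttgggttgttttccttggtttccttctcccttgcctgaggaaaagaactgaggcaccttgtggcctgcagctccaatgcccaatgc
Pltp, chr2:164857709-164857958, minus strand: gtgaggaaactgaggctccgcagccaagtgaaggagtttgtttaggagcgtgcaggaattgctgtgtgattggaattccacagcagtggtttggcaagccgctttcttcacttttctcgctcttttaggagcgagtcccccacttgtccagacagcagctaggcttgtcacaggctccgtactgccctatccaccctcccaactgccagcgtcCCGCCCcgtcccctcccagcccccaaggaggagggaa

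The Lipc stretch had a GC content of 48.4% and that of Pltp 57.6%. Both were searched on both strands for 5 short motifs, chosen after the expression values had been seen: the E-box CACGTG bound by clock factors, the nuclear receptor half-site AGGTCA, the D-box TTANGTAA, the TATA box TATAAA and the GC box GGGCGG. None of these letters stood in the Lipc window. Pltp held 1 match, the GC box on the opposite strand, which reads CCGCCC in capitals above and begins at position -37 counted from the start site. Of 32851 promoter stretches of the same length, 32.7% held GGGCGG, 14% AGGTCA, 12.4% TATAAA, 6.02% CACGTG and 2.06% TTANGTAA. A match of letters describes the sequence and was not tied here to any expression value.

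Lipc, hepatic lipase (chr9:70798128-70952226, minus strand, mm10), was higher with Libramed than with vehicle at both times. At ZT0 it stood at 92.4, 78.3 and 90.5 FPKM with vehicle and at 101.0, 102.1 and 125.9 FPKM with Libramed. At ZT12 it stood at 73.0, 74.6 and 68.9 FPKM with vehicle and at 105.0, 82.8 and 102.4 FPKM with Libramed. All 3 Libramed mice lay above all 3 vehicle mice at each time. Group means were 87.1 ± 7.63 and 109.7 ± 14.1 FPKM at ZT0 and 72.2 ± 2.97 and 96.7 ± 12.2 FPKM at ZT12 (SD, n = 3), which made the Libramed mean 1.26 times the vehicle mean at ZT0 and 1.34 times at ZT12. On the log2(FPKM + 1) scale the limma difference was 0.33 (SE 0.123, p = 0.0322, adjusted p = 0.523) at ZT0 and 0.41 (SE 0.103, p = 0.00551, adjusted p = 0.729) at ZT12, with an exact permutation p of 0.1 at each time, the smallest that 3 mice against 3 allow. Over both times it was 0.37 (SE 0.0797, p = 0.000570, adjusted p = 0.259), at rank 18 by p among 9806 genes, and exact permutation of treatments within each time gave p = 0.005, the smallest that its 400 arrangements can give. So the difference exceeded the spread between mice for this gene taken alone, and it did not pass the adjustment over all genes tested.

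The ZT12 difference of Lipc was 0.37 (adjusted p = 0.533) without Libramed ZT12 replicate 3, and that over both times was 0.34 (adjusted p = 0.253), both still with p under 0.05 before adjustment. The ZT0 difference lost p under 0.05 when 1 of 3 libraries was left out: it was 0.25 (adjusted p = 0.692) without vehicle ZT0 replicate 2, 0.35 (adjusted p = 0.693) without vehicle ZT0 replicate 3 and 0.22 (adjusted p = 0.930) without Libramed ZT0 replicate 3. Hepatocyte markers summed to 48618 to 52537 FPKM with vehicle and 52620 to 63919 FPKM with Libramed at ZT0. At ZT12 the sums were 45929 to 50797 and 49843 to 59763 FPKM and overlapped. Of these markers Apoa1 alone had means of 22771 and 29394 FPKM at ZT0. The median log2 difference of the 13 hepatocyte markers tested was -0.00483 at ZT0 and 0.16 at ZT12, beside -0.02 and -0.01 over all genes. With Libramed 1 was higher and 1 lower at ZT0 (p under 0.05), against 3.42% and 5.81% of all genes. At ZT12 both counts were 2, against 3.07% and 3.67%. Set against Scarb1, another hepatocyte gene, the Lipc level was 1.25 times as high with Libramed (exact permutation over both times, p = 0.01). Scarb1 itself differed by only 0.05 on the log2 scale over both times, so this ratio largely repeats the Lipc difference. The part of the hepatocyte markers in the Lipc difference was not tested.

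Lipc was lower at ZT12 than at ZT0 in vehicle-treated mice, where the 3 ZT12 values lay below the 3 ZT0 values and the mean ratio was 0.829. The log2 difference was -0.26 (SE 0.0918, p = 0.0240, adjusted p = 0.118, exact permutation p = 0.1) with vehicle and -0.18 (SE 0.130, adjusted p = 0.412) with Libramed, where the values overlapped. Over both treatments it was -0.22 (p = 0.0161, adjusted p = 0.0531, exact permutation p = 0.03). The vehicle difference did not keep p under 0.05 without vehicle ZT0 replicate 1 (-0.22), vehicle ZT0 replicate 3 (-0.24) or vehicle ZT12 replicate 3 (-0.23). The interaction of time and treatment was 0.08 (95% interval -0.28 to 0.45, exact permutation p = 0.775), so no difference between the treatments in the change over time was detectable.

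Lipg, endothelial lipase (chr18:74939322-74961263, minus strand), rose from ZT0 to ZT12. In vehicle-treated mice it was at 2.66, 2.66 and 2.16 FPKM at ZT0 and at 4.50, 5.76 and 12.3 FPKM at ZT12. In Libramed-treated mice it was at 1.96, 3.80 and 2.16 FPKM at ZT0 and at 7.75, 11.7 and 14.3 FPKM at ZT12. All 6 ZT12 mice lay above all 6 ZT0 mice. The vehicle mean was 2.50 ± 0.287 FPKM at ZT0 and 7.51 ± 4.17 FPKM at ZT12, 3.01 times as high, and the Libramed mean 2.64 ± 1.01 and 11.3 ± 3.31 FPKM, 4.26 times as high. The log2 difference was 1.18 (SE 0.306, p = 0.00643, adjusted p = 0.0571) with vehicle, 1.75 (SE 0.252, p = 0.000201, adjusted p = 0.00803) with Libramed, and 1.46 (SE 0.224, p = 2.58e-05, adjusted p = 0.000515, exact permutation p = 0.005) over both. Without Libramed ZT12 replicate 3, the highest of the 12, the change with Libramed was 1.57 (adjusted p = 0.0282). The change over both treatments was then 1.35 (adjusted p = 0.00139).

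Whether Lipg rose further with Libramed depended on 1 mouse. At ZT12 the Libramed mean was 1.499 times the vehicle mean, and the groups overlapped through vehicle ZT12 replicate 3 at 12.3 FPKM. The log2 difference was 0.60 (95% interval -0.23 to 1.42) at ZT12 and 0.03 (-0.42 to 0.47) at ZT0, and the interaction was 0.57 (p = 0.217, exact permutation p = 0.305). Without vehicle ZT12 replicate 3 the ZT12 difference was 0.97 (adjusted p = 0.902) and the interaction 0.94 (adjusted p = 0.804), both with p under 0.05 before adjustment.

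Lpl, lipoprotein lipase (chr8:68880491-68907448, plus strand), fell from ZT0 to ZT12. Its level with vehicle was 1.15, 1.53 and 2.19 FPKM at ZT0 and 0.880, 0.419 and 0.542 FPKM at ZT12. With Libramed it was 1.80, 1.24 and 1.29 FPKM at ZT0 and 0.339, 0.705 and 0.636 FPKM at ZT12. No ZT12 mouse reached the lowest ZT0 mouse. In vehicle-treated mice the mean was 1.62 ± 0.525 FPKM at ZT0 and 0.614 ± 0.239 FPKM at ZT12, a ratio of 0.378, and in Libramed-treated mice 1.44 ± 0.307 and 0.560 ± 0.194 FPKM, a ratio of 0.388. The log2(FPKM + 1) difference, which understates changes at such low levels, was -0.69 (SE 0.174, p = 0.00554, adjusted p = 0.0522) with vehicle and -0.65 (SE 0.134, p = 0.00179, adjusted p = 0.0247) with Libramed, each with an exact permutation p of 0.1. Over both treatments it was -0.67 (SE 0.113, p = 6.38e-05, adjusted p = 0.000980, exact permutation p = 0.005). With a pseudocount of 0.1 FPKM in place of 1 the same difference was -1.27. Lpl met the minimum mean of 1 FPKM only through its ZT0 mice, with means of 1.53 FPKM at ZT0 and 0.587 FPKM at ZT12 over both treatments. The filter and the test of time thus drew on the same values. Under the alternative settings, the one without the minimum included, the limma adjusted p over both treatments was at most 0.00313. The adjusted p with Libramed lay between 0.0502 and 0.0681 when 1 of Libramed ZT0 replicates 1, 2 or 3 or Libramed ZT12 replicates 1 or 3 was left out, and it was 0.0801 with the replicate number as a block and 0.0721 with no minimum FPKM. The treatments differed by -0.09 (95% interval -0.48 to 0.30) at ZT0 and -0.05 (-0.39 to 0.29) at ZT12, and the groups overlapped at both times.

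In bulk liver RNA, fewer cells of a type and less RNA per cell cannot be told apart, which matters for a gene as low as Lpl. Of 10 adipocyte markers, Adipoq was at most 0.0492 FPKM, Plin1 at most 0.0381 FPKM, and Lep and Retn were at 0 in every library. The sum of the 10 was higher at ZT12 (45.7 to 95.2 FPKM) than at ZT0 (33.6 to 42.5 FPKM). It came mainly from Pnpla2, Cfd and Lipe (means of 24.9, 10.6 and 8.79 FPKM), and Pnpla2 and Lipe are also counted below among the lipases of the liver. The sum can therefore not be read as a measure of adipocytes. Of the 5 markers tested, 4 (Cfd, Cidec, Lipe and Pnpla2) rose over both treatments with an adjusted p under 0.05, against 29.7% of all genes in either direction. The library with muscle markers held 0.636 FPKM of Lpl, within the range of the other ZT12 mice. Summed markers of endothelial cells were lower at ZT12 (0.650 times ZT0, exact permutation p = 0.005), as were those of stellate cells (0.719 times, exact p = 0.025), while those of Kupffer cells were at 0.826 times (exact p = 0.305). Relative to these sums Lpl at ZT12 was at 0.575 times its ZT0 level per endothelial sum (exact p = 0.02), 0.520 times per stellate sum (exact p = 0.045) and 0.453 times per Kupffer sum (exact p = 0.01). Ecm1 and Dcn, with means of 55.3 and 36.8 FPKM, made up most of the stellate sum. The part of cell content in the change of Lpl was not tested.

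The opposite courses of Lipg and Lpl gave the widest shift among the ratios. Lipg per Lpl had a median of 1.74 with vehicle and 1.67 with Libramed at ZT0, and of 13.7 and 22.5 at ZT12. The lowest ZT12 mouse (5.11) lay above the highest ZT0 mouse (3.05), and the geometric mean was 9.22 times as high at ZT12, which is a description, since both genes were already known to separate the times. Lipg per Lipc was 4.03 times as high at ZT12 and 0.985 times as high with Libramed (exact p = 0.95). For 11 ratios and sums tried here the p-values were not adjusted.

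Gpihbp1, the endothelial carrier of lipoprotein lipase (chr15:75596628-75599481, plus strand), fell over time and was higher with Libramed. With vehicle it was at 13.0, 13.3 and 11.2 FPKM at ZT0 and at 11.0, 8.43 and 5.65 FPKM at ZT12. With Libramed it was at 17.4, 16.3 and 20.9 FPKM at ZT0 and at 11.0, 11.3 and 11.1 FPKM at ZT12. The groups did not overlap over time within either treatment, nor between treatments at either time, although at ZT12 the highest vehicle mouse and the lowest Libramed mouse were both at 11.0 FPKM. Vehicle means were 12.5 ± 1.11 FPKM at ZT0 and 8.35 ± 2.67 FPKM at ZT12, and Libramed means 18.2 ± 2.37 and 11.1 ± 0.130 FPKM. The change over time was -0.57 (SE 0.207, p = 0.0294, adjusted p = 0.132) with vehicle, -0.66 (SE 0.102, p = 0.000314, adjusted p = 0.00991) with Libramed, and -0.61 (p = 0.000225, adjusted p = 0.00238, exact permutation p = 0.005) over both. With vehicle it was -0.34 (adjusted p = 0.256) without vehicle ZT12 replicate 3, which lost p under 0.05, and it also lost it without vehicle ZT0 replicate 1, vehicle ZT0 replicate 2 or vehicle ZT12 replicate 2. With Libramed it was -0.65 (adjusted p = 0.0365) without Libramed ZT12 replicate 3.

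Between treatments, Gpihbp1 differed by 0.50 (SE 0.118, p = 0.00357, adjusted p = 0.343, exact permutation p = 0.1) at ZT0, where the Libramed mean was 1.45 times the vehicle mean. At ZT12 the means differed 1.33 times and the log2 difference was 0.41 (SE 0.199, p = 0.0770, exact permutation p = 0.1), or 0.61 (adjusted p = 0.793, p under 0.05 before adjustment) without vehicle ZT12 replicate 1 and 0.19 (adjusted p = 0.903) without vehicle ZT12 replicate 3. Over both times it was 0.46 (SE 0.119, p = 0.00222, adjusted p = 0.303, exact permutation p = 0.005), and 0.46 (adjusted p = 0.270) without Libramed ZT12 replicate 3. As with Lipc, no adjusted p passed 0.05 in a comparison of treatments.

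Other endothelial genes moved alongside Gpihbp1. The 16 endothelial markers summed to 68.6 to 84.5 FPKM with vehicle and 86.1 to 99.3 FPKM with Libramed at ZT0, and to 38.3 to 57.2 and 60.9 to 63.8 FPKM at ZT12. Clec4g, Egfl7, Eng and Fcgr2b made up most of the sum, with means of 19.2, 11.4, 9.98 and 9.80 FPKM. Pecam1, Cdh5, Kdr and Stab2 had means between 1.35 and 2.33 FPKM. None of the 16 was below 1 FPKM in every library, 14 were tested, and 12 of these fell from ZT0 to ZT12 over both treatments (adjusted p under 0.05, against 29.7% of all genes in either direction) and none rose. With Libramed 4 of the 14 were higher over both times with p under 0.05 (3.82% of all genes), none with an adjusted p under 0.05. The marker sum was 0.650 times as high at ZT12 as at ZT0 and 1.22 times as high with Libramed as with vehicle (exact permutation, p = 0.005 for both). Gpihbp1 per marker sum was 0.969 times as high at ZT12 (exact p = 0.57), so its change over time was not detectable beside that of the markers. Between treatments the ratio was 1.16 times as high with Libramed (exact p = 0.02), with group means of 0.160 and 0.198 at ZT0 and 0.167 and 0.179 at ZT12. At ZT12 the groups overlapped, at 0.147 to 0.192 with vehicle and 0.172 to 0.185 with Libramed.

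**Figure D2:**
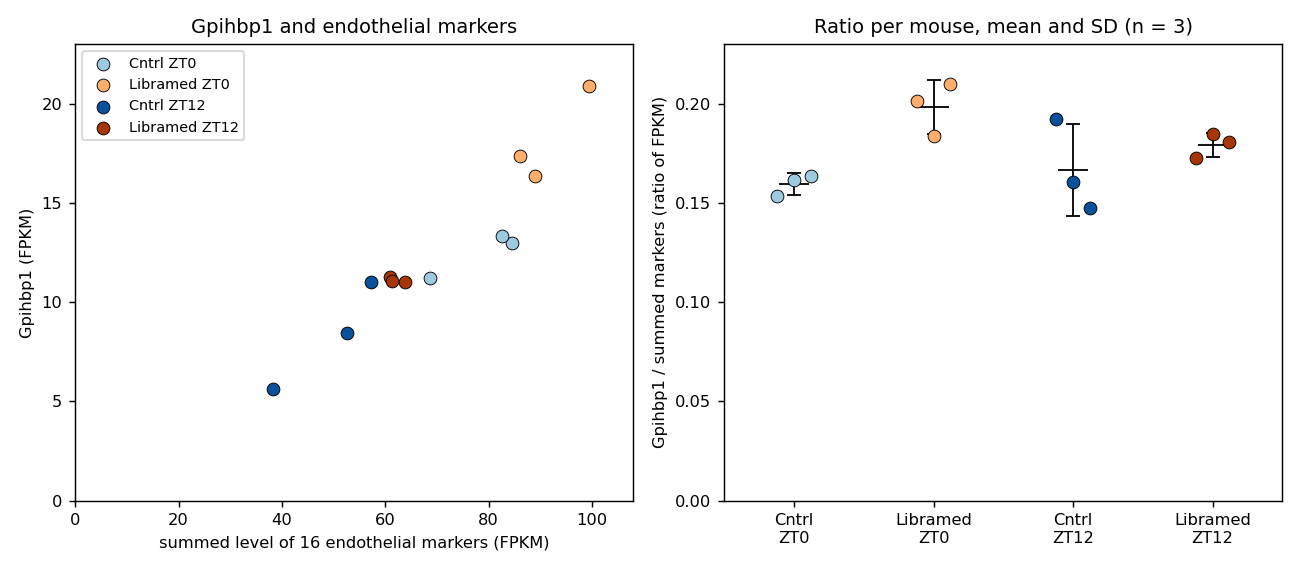
Left, Gpihbp1 (FPKM) against the summed level of 16 endothelial markers (FPKM), 1 point per mouse; right, the ratio of Gpihbp1 to that sum per mouse with the group mean and SD (n = 3). Mice with more endothelial marker RNA had more Gpihbp1, and the ratio lay between 0.147 and 0.210 in all 12 mice.

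Angptl4, the secreted inhibitor of lipoprotein lipase and a well-known PPAR target (chr17:33773750-33781830, minus strand), rose from ZT0 to ZT12 in Libramed-treated mice. Their levels were 55.0, 41.3 and 47.1 FPKM at ZT0 and 132, 111 and 182 FPKM at ZT12, with no overlap. In vehicle-treated mice the levels were 23.1, 164 and 51.1 FPKM at ZT0 and 136, 73.8 and 149.6 FPKM at ZT12, and vehicle ZT0 replicate 2 was the highest of the 6. The means were 47.8 ± 6.86 and 142 ± 36.0 FPKM with Libramed, a ratio of 2.97, and 79.5 ± 74.9 and 119.9 ± 40.5 FPKM with vehicle, a ratio of 1.51. The log2 difference was 1.53 (SE 0.188, p = 7.38e-05, adjusted p = 0.00470, exact permutation p = 0.1) with Libramed and 0.97 (SE 0.665, adjusted p = 0.400, exact permutation p = 0.4) with vehicle. Over both treatments it was 1.25 (SE 0.375, p = 0.00588, adjusted p = 0.0250, exact permutation p = 0.025).

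A rise in Libramed-treated mice alone was not shown for Angptl4, since the interaction was 0.56 (95% interval -1.11 to 2.24, exact permutation p = 0.57). Without vehicle ZT0 replicate 2 the change with vehicle was 1.71 (adjusted p = 0.0633, p under 0.05 before adjustment) and the interaction -0.18 (adjusted p = 0.961). Without Libramed ZT12 replicate 3 the change with Libramed was 1.34 (adjusted p = 0.0104) and that over both treatments 1.13 (adjusted p = 0.0571). In a fit over all 12 samples, which shares the spread of the vehicle mice, the change with Libramed had an adjusted p = 0.0807. The adjusted p over both treatments also passed above 0.05 without Libramed ZT0 replicate 2 (0.0556) and vehicle ZT12 replicate 3 (0.0522), and with no minimum FPKM (0.0513). Between treatments the difference was -0.29 (95% interval -1.74 to 1.16) at ZT0 and 0.28 (-0.42 to 0.97) at ZT12, and leaving out vehicle ZT0 replicate 2 turned the former to 0.45 (adjusted p = 0.774). The wide interval at ZT0 came with the spread of the vehicle mice, whose highest and lowest values were 164 and 23.1 FPKM.

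Among the HDL genes, Lcat, the cholesterol-esterifying enzyme of plasma (chr8:105939551-105943382, minus strand), was the most abundant of the 8 and moved little. With vehicle it was at 458, 404 and 353 FPKM at ZT0 and 447, 467 and 549 FPKM at ZT12. With Libramed it was at 396, 387 and 411 FPKM at ZT0 and 402, 462 and 458 FPKM at ZT12. The groups overlapped over time in both treatments. Its means were 405 ± 52.5, 488 ± 54.1, 398 ± 12.5 and 441 ± 33.6 FPKM in the same order, 1.20 times as high at ZT12 with vehicle and 1.11 times with Libramed. Over both treatments the log2 difference was 0.21 (SE 0.0776, p = 0.0203, adjusted p = 0.0624, exact permutation p = 0.03). It lost p under 0.05 after quantile normalization (0.09, adjusted p = 0.425), without vehicle ZT0 replicate 3 (0.16, adjusted p = 0.134) and without vehicle ZT12 replicate 3 (0.16, adjusted p = 0.135). Treatments differed by -0.02 (95% interval -0.30 to 0.26) at ZT0 and -0.14 (-0.39 to 0.10) at ZT12. The annotated antisense gene Gm16156 covers 3832 bases of Lcat, and without strand its reads could not be told from those of Lcat.

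Scarb1, which encodes the HDL receptor SR-BI (chr5:125277087-125341094, minus strand), was the steadiest of the 8. Vehicle-treated mice had 95.3, 95.8 and 83.4 FPKM at ZT0 and 84.9, 86.9 and 95.6 FPKM at ZT12. Libramed-treated mice had 97.7, 91.8 and 104 FPKM at ZT0 and 90.3, 81.3 and 96.0 FPKM at ZT12. The 4 groups overlapped throughout. Its SD within groups, 0.103 on the log2 scale, was the lowest of the 8 genes, and 22.5% of the 9806 genes had a lower one. No comparison of Scarb1 passed p under 0.05. The 95% intervals of the log2 difference were -0.26 to 0.18 and -0.35 to 0.08 for time with vehicle and with Libramed, and -0.14 to 0.33 and -0.21 to 0.21 for treatment at ZT0 and at ZT12. After quantile normalization the difference over time was -0.21 (adjusted p = 0.141) with Libramed and -0.15 (adjusted p = 0.0889) over both treatments, with p under 0.05 before adjustment.

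Pltp, the phospholipid transfer protein (chr2:164839518-164857711, minus strand), varied more between mice of a group than between groups. With vehicle it was at 19.97, 4.90 and 12.3 FPKM at ZT0 and 5.78, 18.4 and 21.6 FPKM at ZT12. With Libramed it was at 6.94, 18.0 and 11.6 FPKM at ZT0 and 20.9, 21.2 and 4.41 FPKM at ZT12. The lowest mouse of each group lay between 4.41 and 6.94 FPKM and the highest between 18.0 and 21.6 FPKM. The group means lay between 12.2 and 15.5 FPKM, and no comparison passed p under 0.05. The SD within groups was 0.938 on the log2 scale, higher than in 99.1% of the 9806 genes, and that of Angptl4 (0.779) was higher than in 98.8%. The interval of the treatment difference, -1.08 to 1.22 at ZT0 and -1.63 to 1.52 at ZT12, leaves room for large differences in either direction. Without Libramed ZT12 replicate 3, the library with muscle markers, the change over time with Libramed was 0.83 (adjusted p = 0.198, p under 0.05 before adjustment) instead of 0.16 (adjusted p = 0.887). On the other strand Ctsa overlaps 1515 bases of Pltp and stood at 36.1 to 58.7 FPKM, so without strand reads from the overlap could count for either gene.

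The 4 mice with the lowest Pltp of their groups were vehicle ZT0 replicate 2, Libramed ZT0 replicate 1, vehicle ZT12 replicate 1 and Libramed ZT12 replicate 3. Angptl4 was the highest of its group in 3 of these mice and second in vehicle ZT12 replicate 1 (136 FPKM against 149.6). The correlation of Pltp and Angptl4 within groups was r = -0.67 over the 12 mice, a description of mice that share group, library and handling. Scd1, a lipogenic enzyme and LXR target, stood at 11.7, 125, 47.9 and 105 FPKM in these 4 mice, and at 218 FPKM or more in the other 8. It and the other genes named for these 4 mice were picked after their values were seen. Of all genes tested, 437 (4.46%) were lowest of their group in the same 4 mice and 493 (5.03%) were highest there. The former included 3 of 10 LXR targets (Lpcat3, Scd1 and Srebf1) and Srebf2, and the latter included Acsl1, Cpt2 and Slc25a20, PPARα targets of fat oxidation. None of the 17 clock genes, 14 endothelial markers or 9 Kupffer cell markers tested was in either set. These mice were picked for their Pltp level, so no test was made.

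**Figure D3:**
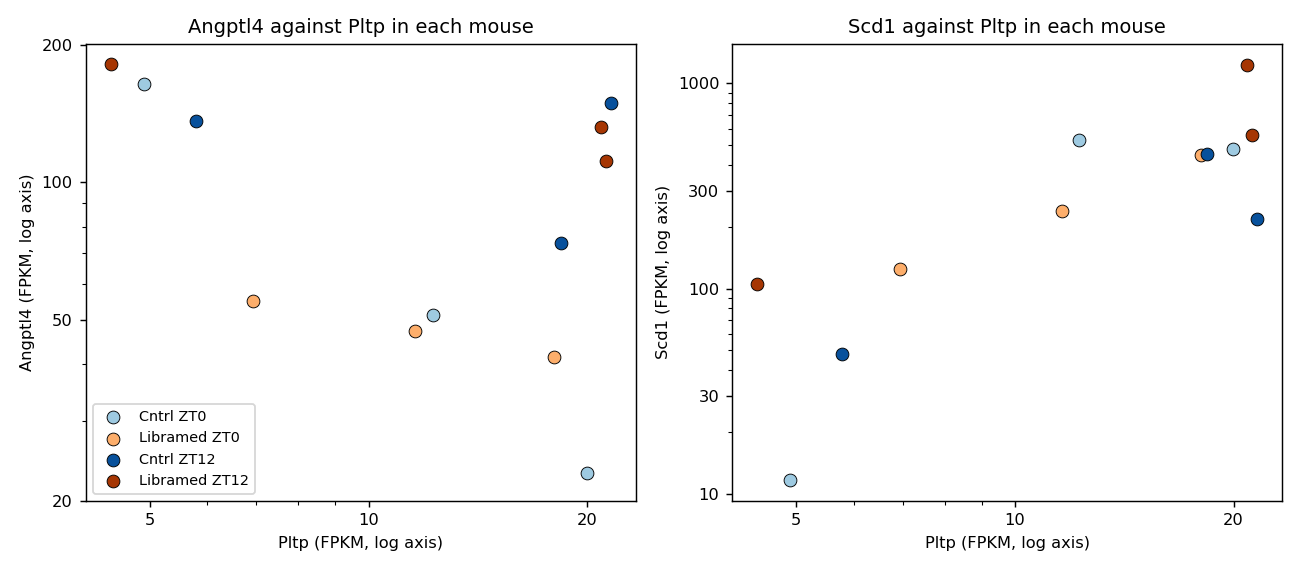
Angptl4 (left) and Scd1 (right) against Pltp, in FPKM on log axes, 1 point per mouse, colored by group. The 4 mice with Pltp between 4.41 and 6.94 FPKM had Scd1 between 11.7 and 125 FPKM, and in the Libramed ZT0 group the 3 mice ran from high Angptl4 and low Pltp (55.0 and 6.94 FPKM) to the reverse (41.3 and 18.0 FPKM).

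Counted together, time moved more of the 8 genes than treatment did, as it did across the liver. From ZT0 to ZT12 in vehicle-treated mice 4 of 8 passed p under 0.05, Lipg upwards and Lipc, Lpl and Gpihbp1 downwards, where 27.4% of the 9806 genes passed. None had an adjusted p under 0.05, where 10.4% of all genes did, although 3 did in a fit over all 12 samples (Lipg, Lpl and Gpihbp1) and 2 with a pseudocount of 0.1 (Lipg and Lpl). In Libramed-treated mice 4 of 8 passed, Lipg and Angptl4 upwards and Lpl and Gpihbp1 downwards, against 29.2% of all genes, and the same 4 had an adjusted p under 0.05, against 12.4%, or 3 of them in the fit over all 12 samples, where Angptl4 was lost. The adjusted counts therefore do not set the treatments apart. Over both treatments 6 of 8 passed p under 0.05 (41% of all genes), and Lpl, Lipg, Angptl4 and Gpihbp1 passed after adjustment (29.7%). The groups did not overlap over time for 4 of 8 genes with vehicle and for 4 of 8 with Libramed, where 33.2% and 34.9% of all genes did not, and over both treatments for 2 of 8 (Lipg and Lpl), where 13.3% did not. All these counts include Lpl, except that of adjusted p with vehicle, and Lpl met the minimum of 1 FPKM only through its ZT0 mice. With no minimum FPKM, 3 of 8 had an adjusted p under 0.05 with Libramed (Lpl was lost) and 3 over both treatments (Angptl4 was lost). Of 17066 genes then tested, 639 and 2969 did. Median log2 changes of the 8 genes were 0.12 with vehicle and 0.00491 with Libramed, beside 0.01 in each over all genes, since rises and falls offset each other.

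Between treatments at ZT0, 2 of 8 genes (Lipc and Gpihbp1) were higher with Libramed with p under 0.05 and none was lower, where 3.42% of all genes were higher and 5.81% lower. At ZT12 Lipc alone passed, against 3.07% of all genes higher and 3.67% lower. The treatments did not overlap for Lipc and Gpihbp1 at ZT0 and again at ZT12, where 15.1% and 13.1% of all genes did not. With the times pooled the treatments overlapped for all 8 genes, and 0.398% of all genes did not overlap. Over both times the same 2 genes passed, against 3.82% of all genes higher and 6.28% lower. After limma's adjustment none of the 8 passed in any of these comparisons, and only 2 of 9806 genes (0.0204%) did over both times and none at ZT0 or ZT12. In the interaction of time and treatment none of the 8 passed p under 0.05, where 6.63% of all genes did. The median difference of the 8 genes between treatments was 0.05 at ZT0 and 0.14 at ZT12, beside -0.02 and -0.01 over all genes. The comparisons share mice, the ZT0 values entering both the change over time and the treatment comparison, and so they are not independent.

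**Figure D4:**
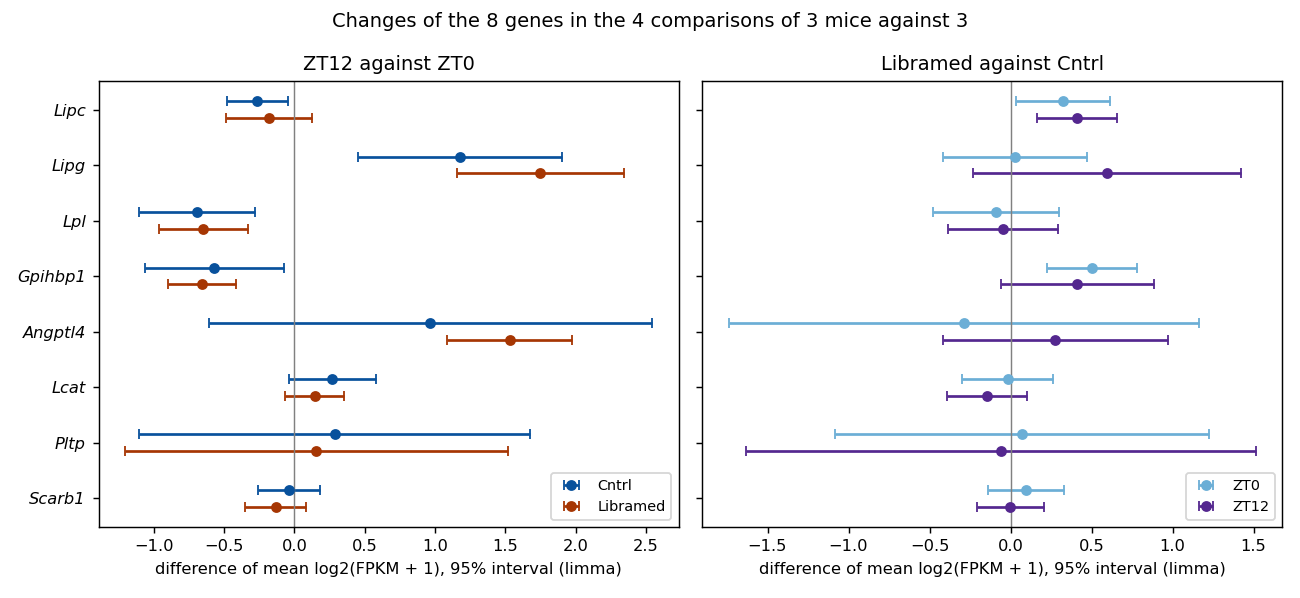
Differences of mean log2(FPKM + 1) with 95% intervals from limma, for ZT12 against ZT0 within each treatment (left) and Libramed against vehicle (Cntrl) at each time (right). Lipg (1.18 and 1.75) lay right of 0 and Lpl (-0.69 and -0.65) left of 0 over time in both treatments, and Lipc lay right of 0 between treatments at both times (0.33 and 0.41).

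Cofactors that act on these lipases were taken from a list of 16 genes, of which 14 were tested. With vehicle 3 rose and 1 fell from ZT0 to ZT12 (adjusted p under 0.05), with Libramed none rose and 2 fell, and over both treatments 3 rose and 1 fell, where 10.4%, 12.4% and 29.7% of all genes passed, so the last 2 counts were near the background. They had medians of 0.09, 0.07 and 0.04 beside 0.01 in each over all genes. Apoa5, the apolipoprotein that favors triglyceride hydrolysis by lipoprotein lipase, rose from 579 ± 68.4 to 935 ± 87.3 FPKM with vehicle (0.69, adjusted p = 0.0199) and stood at 559 ± 87.5 and 888 ± 170 FPKM with Libramed. Over both treatments its change was 0.68 (adjusted p = 0.000663). Sel1l, part of the endoplasmic reticulum machinery through which newly made lipoprotein lipase leaves, fell in both treatments, with log2 differences of -0.98 for vehicle (adjusted p = 0.00313) and -0.66 for Libramed (adjusted p = 0.0113), and its mean at ZT0 was 39.6 FPKM with vehicle and 28.4 FPKM with Libramed. Lmf1, the maturation factor that lipoprotein, hepatic and endothelial lipase need, had levels from 35.1 to 45.8 FPKM and was not called. Pcsk6 and Furin, proprotein convertases known to cleave endothelial lipase, changed over both treatments by 0.43 (adjusted p = 0.000357) and 0.18 (adjusted p = 0.0494). Angptl6 fell with Libramed (-0.48, adjusted p = 0.0430) and stood at -0.03 with vehicle, and its interaction was -0.45 (adjusted p = 0.663). Gm6484, the symbol under which RefSeq lists Angptl8, ranged from 74.4 to 501 FPKM and had no adjusted p under 0.05. Lmf1 and Gm6484 were picked after their values were seen.

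Of the other lipases of the liver some rose towards ZT12 and none fell. Of 15 tested, 6 rose with vehicle, 7 with Libramed and 10 over both treatments (adjusted p under 0.05), where 10.4%, 12.4% and 29.7% of all genes passed in either direction, with medians of 0.54, 0.44 and 0.40. Ces1d, a carboxylesterase of the endoplasmic reticulum that handles triglyceride, rose in both treatments, with means of 168 ± 26.9 FPKM at ZT0 and 831 ± 138 FPKM at ZT12 for vehicle and of 221 ± 16.9 and 721 ± 99.7 FPKM for Libramed (log2 changes 2.30 and 1.70, adjusted p = 0.00258 and 0.000959). Ces1g rose by 1.51 and 1.07, and Pnpla2, adipose triglyceride lipase, by 0.56 and 0.52 (adjusted p = 0.0138 and 0.0404). Mgll, which splits monoglycerides, rose by 0.78 and 0.68, and Abhd6 and Ddhd2 rose in both treatments too. Lipg rose towards ZT12 along with these genes, and Lipc and Lpl did not. The difference between the sets of genes was not tested.

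**Figure D5:**
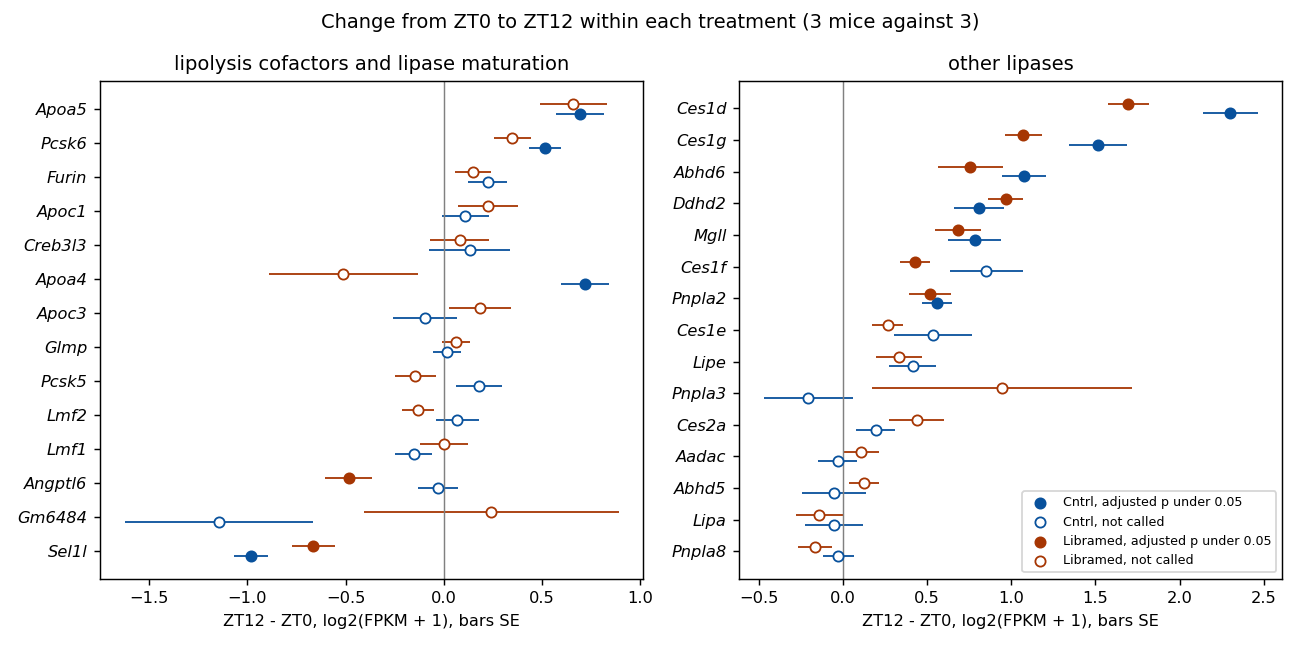
Change from ZT0 to ZT12 (difference of mean log2(FPKM + 1), bars SE) for 14 lipolysis cofactors (left) and 15 other lipases (right), with vehicle (Cntrl, blue) and with Libramed (red); filled points have an adjusted p under 0.05. Sel1l lay at -0.98 and -0.66 and Ces1d at 2.30 and 1.70.

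Of 10 lipoprotein receptors tested none was called over time within a treatment after adjustment, where 10.4% (vehicle) and 12.4% (Libramed) of all genes were. Over both treatments Stab2 (-0.42, adjusted p = 0.0136) and Sort1 (-0.37, adjusted p = 0.0228) fell, where 29.7% of all genes were called in either direction. Of 11 HDL genes beside the 3 described, Pctp rose (0.87, adjusted p = 0.0149) and Pla2g12b fell (-0.37, adjusted p = 0.0236) with vehicle, and Apom (-0.61, adjusted p = 0.0246) and Pla2g12b (-0.35, adjusted p = 0.0259) fell with Libramed, against the same 10.4% and 12.4% of all genes. Over both treatments 1 rose and 2 fell after adjustment, near the 29.7% of all genes. Apoa1, the main HDL protein, was at 22771 ± 846 FPKM with vehicle and 29394 ± 3355 FPKM with Libramed at ZT0 (0.36, adjusted p = 0.526, p under 0.05 before adjustment). PPARα targets, the group to which Angptl4 belongs by regulation, counted 8 up and 1 down of 19 with vehicle (10.4% of all genes in either direction) and 5 up and 3 down with Libramed (12.4%) after adjustment. LXR targets, the group of Pltp, counted 3 up of 10 with vehicle, and 4 up and 1 down with Libramed, against the same shares of all genes, with Abcg5, Abcg8 and Cyp7a1 up in both. In no list did a gene pass adjustment between treatments. With p under 0.05, 7 of 19 PPARα targets were lower with Libramed at ZT12 (3.67% of all genes) and none higher (3.07%), while Angptl4 stood at 0.28 (adjusted p = 0.855).

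The genes whose levels ran most like each of the 8 are given as a description over the 12 mice, which share time and treatment. For Gpihbp1 they were Dnase1l3 (Pearson r = 0.98), the sinusoidal endothelial marker Clec4g (0.94) and Epb4.1l2 (0.94). For Lipg they were Tmc7 (0.98), Vps9d1 (0.96) and Fbxo34 (0.95), and for Lpl Phospho1 (0.95), Hist1h2bc (0.94) and AW011738 (0.94). Lipc ran most like Med4 (0.92), Amdhd1 (0.91) and BC029214 (0.88). For Angptl4 they were Eif4g1 (0.95), Pdcd11 (0.93) and Son (0.92), and for Pltp Tmem176b (0.92), As3mt (0.91) and Pck2 (0.90). Lcat ran with Acot2 (0.90), Nit1 (0.90) and Cyp2a22 (0.89), and Scarb1, which varied least, with Zdhhc17, Ppp2r1a and Amigo1 (0.85, 0.85 and 0.84). None of the 8 genes was among the genes most like another of them.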

How the data were processed

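Liver RNA of 12 mice was analysed, with groups taken from the sample labels. The authors deposited 1 table of FPKM values per gene symbol and sample. The methods describe single-end reads aligned with ELAND to mm10 and known junctions, unique matches only, and RPKM, while the submitters' processing notes name TopHat and Cuffnorm. The methods describe stranded libraries and the labels name TruSeq RNA Library Prep Kit v2, so whether reads were counted by strand is unknown. Of 24138 lines, 289 repeated the symbol of a line with a higher mean and were dropped.

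After log2(FPKM + 1) transformation, the 9806 genes averaging 1 FPKM or more were fitted with limma 3.58.1 in R 4.3.3 (lmFit, eBayes with trend). Tests were two-sided, and calls used either the study's threshold of p under 0.05 or the same threshold after Benjamini-Hochberg adjustment over all genes tested. Comparisons of 3 mice against 3 used those 6 libraries, and effects over both times or treatments and the interaction used all 12. Exact permutation tests used 400 arrangements within strata; 3 against 3 allows 20, with a smallest p of 0.1. Read depth is unknown, so no counting error can be given. The procedure was tested on simulated data. The 8 genes, the lists of pathway and marker genes and the tests were chosen with earlier results of these data known. Named are the 8 genes, and list genes with an adjusted p under 0.05 or the smallest p of their list. Marker genes are also named for their level, and for each of the 8 genes the 3 most correlated genes. Others are said to be picked after their values were seen. Coordinates are from GENCODE vM21 (GRCm38, the build of mm10). The limma differences of the 8 genes and the counts of all genes called were recomputed under alternative settings. These were a pseudocount of 0.1, no minimum, no trend, median-ratio scaling, quantile normalization and the replicate number as a block. Fits with all 12 samples and with each library left out in turn were run too. Exact permutation tests, marker sums, ratios, list genes and shares without overlap were computed once, in the main setting.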

Additional observations from a re-analysis of the deposited data

How the results depend on the processing

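Of 19 differences of the 8 genes with p under 0.05, 15 kept their direction and p under 0.05 under every alternative run, and in 287 recomputed values 272 kept both, 15 lost p under 0.05 and 0 changed direction. The number of genes with p under 0.05 stayed within 1.5 times under the other settings, with these exceptions. At ZT12 between treatments it was 2 instead of 1 with the replicate block and in the fit over all 12 samples. Leaving out 1 library at a time, it ranged from 1 to 2 between treatments at ZT12 and at ZT0, from 2 to 4 over time with vehicle (2 without vehicle ZT12 replicate 3), and from 0 to 1 for the interaction. Gpihbp1 with vehicle over time lost p under 0.05 with no minimum FPKM (adjusted p = 0.264).

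Most same-numbered libraries did not deviate together (r over 0.1 in 4 of 18 pairs, from -0.279 to 0.341). A pairing of mice by number was thus not seen, though deviations from means of 3 mice cannot exclude one. With the replicate block Lipc over time with vehicle (-0.26, adjusted p = 0.230) lost p under 0.05 and Lipg between treatments at ZT12 (0.60, adjusted p = 0.738) gained it. Counts of genes with an adjusted p under 0.05 depended most on the setting: 1020 over time with vehicle became 515 with no minimum FPKM, 279 with the block, 1539 in the fit of 12 samples and 226 to 869 without 1 library, and 1212 with Libramed became 639, 709, 1462 and 535 to 1014. The cause was not tested. With 3 mice a group and unknown depth, a missing call for Pltp or for Angptl4 with vehicle leaves wide intervals.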
